A study of Mus musculus with 3 samples.

Results

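The genes described here are 8 genes used to recognise tip cells, the endothelial cells (ECs) that lead a sprouting vessel: Esm1, Apln, Aplnr, Kcne3, Cxcr4, Adm, Plaur and Mcam. They were found by symbol in the gene table, 8 of 33696 genes, and their values were taken in the ECs and EC subtypes of 3 single-cell RNA-seq libraries of the mouse retina at postnatal day 6. The WT library came from wild-type mice. The Tspan12 KO library came from mice with a constitutive knockout of Tspan12, a tetraspanin of the Norrin receptor complex. The Ctnnb1 cKO library came from Ctnnb1 flox/flox; Pdgfb-iCreER mice, in which tamoxifen given shortly after birth deletes the gene of β-catenin in cells where the Pdgfb promoter drives Cre, mainly ECs. The strain was C57BL/6 throughout, the retinas of several pups of a litter were pooled for each library, WT pups were not littermates of the knockout pups, and cells were enriched with CD31 and CD11b beads. Whether WT pups received tamoxifen is not given in the sources used here.

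A retinal vessel grows from its front, where VEGF-rich tissue selects tip cells that extend filopodia and are followed by dividing stalk cells. Tip cells switch on secreted and surface proteins. Esm1 encodes endocan, a secreted proteoglycan induced by VEGF, Apln encodes the peptide apelin and Aplnr its G protein-coupled receptor, and Adm encodes the vasoactive peptide adrenomedullin. Cxcr4 encodes the receptor for the chemokine CXCL12, Plaur the receptor for urokinase, Kcne3 a small accessory subunit of voltage-gated potassium channels, and Mcam the adhesion molecule CD146, which pericytes also carry. Norrin, Tspan12 and β-catenin act in one pathway that drives vessel growth and barrier formation in the retina.

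Each group was 1 library, so no difference between libraries could be tested, and both knockout comparisons share the WT library. Triples of values below follow the order WT, Tspan12 KO, Ctnnb1 cKO, and pairs of ratios to WT the order Tspan12 KO, Ctnnb1 cKO. ECs numbered 537 of 8989 cells in WT, 277 of 12732 in Tspan12 KO and 2704 of 8451 in Ctnnb1 cKO. The median EC held 15792, 15419 and 3352.5 UMIs (unique molecular identifiers, each 1 counted transcript) in that order, so shares of positive cells are given after each cell was thinned to 2000 UMIs, which left 520, 259 and 1884 ECs. Levels are given as CPM, the UMIs of a gene as a share of all UMIs of the ECs, on the usual CPM scale, and all intervals are 95% and cover counting error only, not the spread between cells or animals. All 10 endothelial markers were detected in the ECs of every library, at a summed 9312, 8646 and 7716 CPM in WT, Tspan12 KO and Ctnnb1 cKO. Markers of other cells were present too: the pericyte list summed to 16.9, 31.2 and 28.7 CPM, the microglia list to 163, 113 and 740 CPM, the erythrocyte list to 159, 3090 and 196 CPM, the Muller glia list to 464, 280 and 847 CPM and the rod list to 141, 258 and 112 CPM, with all members of the pericyte, microglia, Muller glia and rod lists detected in each library. Their part in the results below was not tested. Between 18 and 31 barcodes were shared by a pair of libraries. Tspan12 was read at 95.9, 83.5 and 40.1 CPM and Ctnnb1 at 523, 616 and 444 CPM. Because these are counts of 3′ ends and the deleted exons are not given in the sources used here, neither value checks a label.

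The stretches upstream of 7 members were matched by symbol in a RefSeq table for GRCm38.p6 (Aplnr was not matched), and 4 of these are printed because they hold a core motif for a factor that is known to act in sprouting or in the deleted pathway. Each line gives the 250 bases before the annotated start, 5′ to 3′ on the gene's strand. Capitals mark ACGTG or GCGTG, the core bound by hypoxia-inducible factors, and CTTTGA, a core of TCF/LEF sites, on either strand.
Esm1, chr13:113209409-113209658, plus strand: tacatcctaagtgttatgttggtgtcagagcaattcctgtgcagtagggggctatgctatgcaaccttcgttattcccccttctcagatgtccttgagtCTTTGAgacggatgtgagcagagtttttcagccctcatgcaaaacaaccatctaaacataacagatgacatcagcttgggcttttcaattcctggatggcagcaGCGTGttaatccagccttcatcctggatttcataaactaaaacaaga
Kcne3, chr7:100176420-100176669, plus strand: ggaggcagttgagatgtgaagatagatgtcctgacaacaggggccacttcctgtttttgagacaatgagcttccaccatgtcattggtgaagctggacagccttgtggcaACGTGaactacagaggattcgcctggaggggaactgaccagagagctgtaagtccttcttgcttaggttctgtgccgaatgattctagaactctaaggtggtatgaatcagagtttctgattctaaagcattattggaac
Cxcr4, chr1:128592300-128592549, minus strand: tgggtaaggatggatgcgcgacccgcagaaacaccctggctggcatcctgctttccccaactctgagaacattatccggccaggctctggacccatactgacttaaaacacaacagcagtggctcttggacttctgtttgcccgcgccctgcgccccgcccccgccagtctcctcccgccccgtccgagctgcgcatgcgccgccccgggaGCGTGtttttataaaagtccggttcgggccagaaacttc
Adm, chr7:110627407-110627656, plus strand: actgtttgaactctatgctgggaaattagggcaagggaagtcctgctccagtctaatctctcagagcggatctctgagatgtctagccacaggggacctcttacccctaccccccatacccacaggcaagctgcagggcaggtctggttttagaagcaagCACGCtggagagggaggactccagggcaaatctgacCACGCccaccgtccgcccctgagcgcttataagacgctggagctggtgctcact
Kcne3 has 2 annotated starts, so the 7 genes have 8 such windows. ACGTG was in 1 of the 8 and in 16.6% of all 32851 windows of the table, GCGTG in 3 and in 28.2%, CTTTGA in 1 and in 13.8%, and the Notch effector core GTGGGAA in 0 and in 5.42%. These matches describe the letters of the windows and are not binding sites.

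Over all ECs, the members fell into 4 patterns across the libraries. Esm1, Apln, Aplnr and Mcam were near or somewhat above the WT level in Tspan12 KO and below it in Ctnnb1 cKO. Adm and Plaur were below WT in both knockout libraries, and Cxcr4 was above WT in both. Kcne3 was above WT in Tspan12 KO and within counting error of it in Ctnnb1 cKO.

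Esm1 was read at 56.3 CPM (95% interval 52.7 to 60.1), 55.4 CPM (49.8 to 61.5) and 28.9 CPM (26.0 to 32.0) in the 3 libraries. The Ctnnb1 cKO library was the low one, with a log2 ratio to WT of -0.96 (-1.14 to -0.79), while for Tspan12 KO it was -0.02 (-0.20 to 0.16). Few cells carried this gene: at 2000 UMIs, 28 of 520 ECs (5.38%), 20 of 259 (7.72%) and 75 of 1884 (3.98%) had a UMI, against 3 of 1046, 0 of 1277 (where 3 counts would allow up to 0.235% of rods with a UMI) and 1 of 526 rods, a cell type that should lack it. The 5% of ECs with most Esm1 UMIs held 86.0%, 64.5% and 75.4% of them.

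For the apelin pair, Apln was at 168, 203 and 102 CPM. Its receptor Aplnr was at 219, 282 and 104 CPM. Over all UMIs, the intervals of the 3 libraries did not overlap for either gene, and the order was the same for ligand and receptor. The log2 ratios of Tspan12 KO to WT were 0.27 (0.17 to 0.37) for Apln and 0.36 (0.28 to 0.45) for Aplnr, and those of Ctnnb1 cKO were -0.72 (-0.82 to -0.63) and -1.08 (-1.17 to -0.99). The Tspan12 KO ratios depended on the processing. Over the settings tried they ran from 0.07 to 0.58 for Apln and from 0.03 to 0.92 for Aplnr. Aplnr was the broadly expressed one, with a UMI in 40.8%, 42.5% and 17.4% of thinned ECs, against 16.3%, 18.9% and 13.4% for Apln.

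Adm was at 28.1, 9.29 and 15.1 CPM. Its log2 ratios to WT were -1.60 (-2.01 to -1.20) and -0.90 (-1.15 to -0.65), the lowest of the 8 members in Tspan12 KO, where it rests on 59 UMIs and was -0.65 in thinned cells. Plaur was at 49.8, 37.2 and 26.3 CPM. The ratios to WT, on the log2 scale, were -0.42 (-0.64 to -0.21) and -0.92 (-1.11 to -0.73).

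Cxcr4 went the other way. It was at 25.0, 53.5 and 50.5 CPM, and the intervals of the knockout libraries overlapped each other and not that of WT. Its log2 ratios to WT were 1.10 (0.88 to 1.31) and 1.01 (0.83 to 1.19). Of the 340 UMIs of Tspan12 KO, 173 came from 1 subcluster of 64 cells found almost only in that library, and without it the ratio was 0.53. In cells thinned to 2000 UMIs both ratios were near 0, at 0.18 and 0.22, with a UMI in 6.92%, 9.65% and 8.81% of ECs and overlapping intervals.

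Kcne3 was at 39.2, 49.3 and 35.7 CPM, and its log2 ratios were 0.33 (0.13 to 0.53) and -0.14 (-0.31 to 0.04), or 1.06 and 0.23 in thinned cells. Mcam was at 172, 174 and 122 CPM, and its ratios were 0.02 (-0.08 to 0.12) and -0.49 (-0.58 to -0.40). Mcam was thus level between WT and Tspan12 KO and lower in Ctnnb1 cKO.

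**Figure D1:**
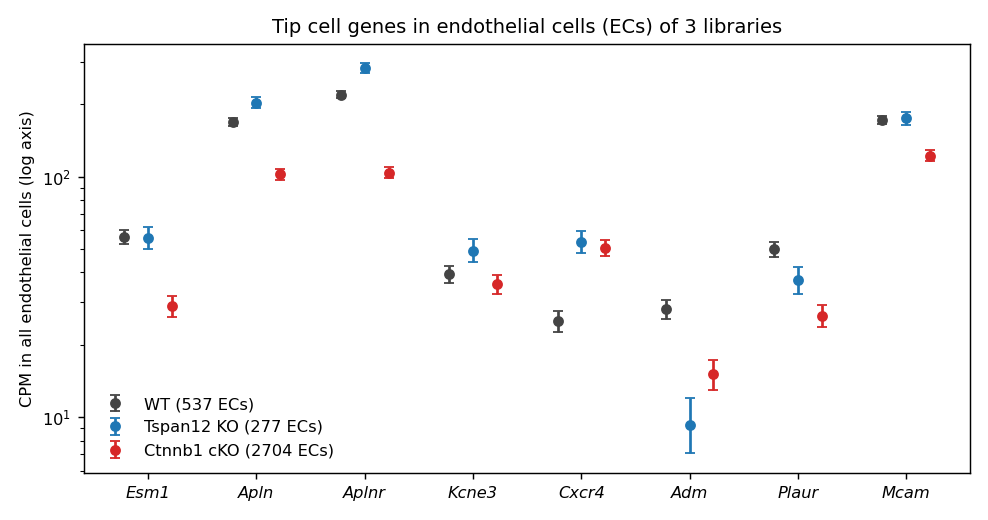
CPM (log axis) of each of the 8 genes in all ECs of the WT, Tspan12 KO and Ctnnb1 cKO libraries; points are 1 library each and bars are 95% Poisson intervals. Cxcr4 is the only gene with both knockout libraries above WT by about 2-fold over all UMIs (0.18 and 0.22 on the log2 scale in thinned cells), Adm has its lowest value, 9.29 CPM, in Tspan12 KO, and Aplnr is at 104 CPM in Ctnnb1 cKO against 219 CPM in WT.

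A 2-fold difference was counted on the log2 (CPM + 5) scale, beside the same count over the 13214 genes with at least 50 UMIs in ECs, a filter that all 8 members passed. In Tspan12 KO, 1 member (Adm) was lower by 2-fold or more, against 1.03% of all genes, and 0 were higher, against 0.515%. In Ctnnb1 cKO, 1 member (Aplnr) was lower, against 4.99% of all genes, and 0 were higher, against 3.9%. The median log2 difference of the 8 members was 0.14 in Tspan12 KO and -0.71 in Ctnnb1 cKO, beside medians of 0.01 and -0.09 over all genes. With TMM scaling, which adds 0.14 to every log2 ratio of Ctnnb1 cKO, Aplnr fell short of 2-fold and Cxcr4 passed it. The 10 tip markers that are not members had medians of 0.07 and 0.01, and 2 of them, Igfbp3 (285, 450 and 930 CPM) and Pdgfb (207, 246 and 469 CPM), were 2-fold higher in Ctnnb1 cKO. The Pdgfb promoter also drives the Cre of that library. Of its Igfbp3 UMIs, 5218 came from 1 unnamed subcluster of 335 cells led by Eln and Mgp. Igfbp3 was at 3670 CPM there and the tip marker Angpt2 at 9.85 CPM.

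How ECs were picked mattered for most members. A stricter gate on single cells, with at least 3 endothelial markers and at most 1 UMI of rod, microglia or pericyte markers, kept 191, 48 and 752 cells with median depths of 5840, 3754.5 and 1589 UMIs. In that gate the Ctnnb1 cKO ratio turned positive for Esm1 (2.14), Apln (0.69), Adm (1.24), Plaur (0.77) and Mcam (0.38), as did those of Tspan12 KO for Adm (0.40) and Plaur (1.77). Kcne3 in Ctnnb1 cKO, within counting error before, stood at 0.61, and Esm1 in Tspan12 KO at 2.40. The directions of Esm1, Apln, Adm, Plaur and Mcam in Ctnnb1 cKO and of Adm and Plaur in Tspan12 KO therefore differed with the choice of ECs. Kcne3 in Ctnnb1 cKO and Esm1 in Tspan12 KO had intervals that included 0 over all ECs, so no direction was reversed for them. The gate ratios are given without counting intervals and rest on 48 cells in Tspan12 KO. Aplnr and Cxcr4 kept their directions in both comparisons there.

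The members were then located among EC subclusters, which were made without the 8 genes. At the resolution fixed for the main analysis no subcluster carried enough of the 10 other tip markers to be called tip-like, so 0 cells were. At resolution 2, a choice added after the subclusters were seen, a tip-like subcluster led by Adam12, Pcdh17 and Angpt2 held 18 WT, 33 Tspan12 KO and 4 Ctnnb1 cKO cells. Another, led by Kit and Angpt2, held 251 cells, all of Ctnnb1 cKO, so that library and cell state cannot be told apart there. Tip-like cells made up 3.35% (2.0 to 5.25), 11.9% (8.34 to 16.3) and 9.43% (8.35 to 10.6) of ECs, shares that bead enrichment and depth can set. Esm1 had the highest fold of all genes in the subcluster that WT and Tspan12 KO share.

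In WT, 7 of the 8 members were higher in tip-like than in other ECs, and Aplnr was lower. Esm1 was at 495 CPM in the 18 tip-like cells against 30.3 CPM in the other 519 ECs, a log2 ratio of 4.03 (3.84 to 4.22). Apln was at 699 against 137 CPM, Kcne3 at 226 against 28.1 CPM, Cxcr4 at 121 against 19.4 CPM, Adm at 130 against 22.1 CPM, Mcam at 429 against 157 CPM and Plaur at 110 against 46.2 CPM. Aplnr was at 107 against 226 CPM, a log2 ratio of -1.08 (-1.39 to -0.79). Ligand and receptor of the apelin pair therefore lay on opposite sides in WT tip-like cells. These were also the deeper cells, with a median of 40975.5 UMIs against 15242. After thinning, 9 of 18 tip-like cells and 19 of 502 other ECs held Esm1, and 2 of 18 and 210 of 502 held Aplnr. For Plaur, 2 of 18 and 46 of 502 did, shares whose intervals overlap.

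In Tspan12 KO all 8 members had a higher CPM in the 33 tip-like cells, but the ratio was below that of WT for 7 of them, with overlapping intervals for Adm and Mcam, and Aplnr went with the rest. Esm1 was at 146 against 46.9 CPM (log2 1.63, 1.26 to 2.0), Kcne3 at 126 against 42.1 CPM (1.58, 1.17 to 1.97) and Mcam at 342 against 158 CPM (1.11, 0.88 to 1.34). Aplnr was at 427 against 268 CPM (0.67, 0.47 to 0.87). For Cxcr4 (67.3 against 52.2 CPM) and Plaur (43.7 against 36.5 CPM) the intervals of the ratio included 0. With tip-like cells taken instead as those with an Angpt2 UMI at 2000 UMIs (12 cells), the Aplnr ratio was -0.07.

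In Ctnnb1 cKO all 8 members were higher in the 255 tip-like cells. Kcne3 was at 179 against 23.6 CPM (log2 2.92, 2.64 to 3.19), Adm at 74.3 against 10.1 CPM (2.88, 2.44 to 3.31) and Apln at 349 against 81.3 CPM (2.10, 1.92 to 2.28). Esm1 was at 81.3 against 24.5 CPM (1.73, 1.36 to 2.09) and Aplnr at 134 against 101 CPM (0.40, 0.13 to 0.66). When the Ctnnb1 cKO ECs were subclustered alone, none was tip-like by the same markers.

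**Figure D2:**
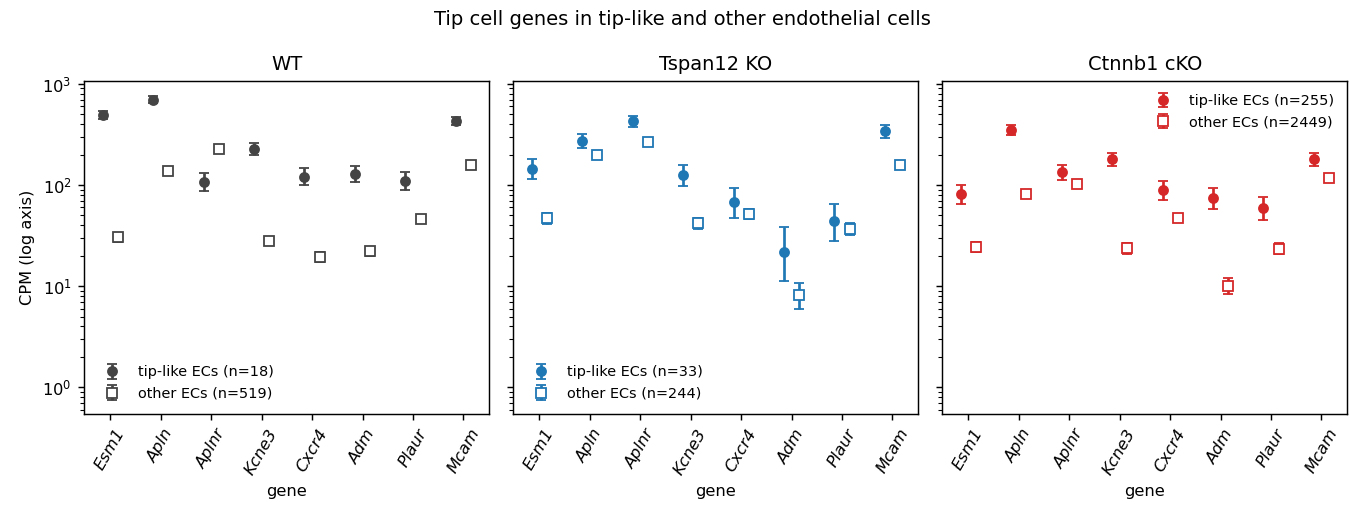
CPM (log axis) of the 8 genes in tip-like ECs (filled) and all other ECs (open) of each library, with 95% Poisson intervals, where tip-like cells are those of the tip-like subclusters at resolution 2. Aplnr is the only gene below its level in other ECs, and only in WT, where it is at 107 against 226 CPM.

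The other subclusters set the members further apart. In WT and Ctnnb1 cKO, arterial-like ECs held little Apln: 3.35 CPM in the 52 WT cells and 6.75 CPM in the larger arterial-like subcluster of Ctnnb1 cKO with 314 cells. Aplnr was low there too, at 37.6 and 21.4 CPM, as was Kcne3, at 6.04 and 3.37 CPM. Cxcr4 was the exception. It was at 59.0 CPM in WT and 157 CPM in Ctnnb1 cKO arterial-like cells, against 10.4 CPM in WT proliferative-like cells and 9.40 CPM in the venous-like subcluster of Ctnnb1 cKO. The smaller arterial-like subcluster of Ctnnb1 cKO (49 cells) had Cxcr4 at 23.3 CPM on 3 UMIs. Tspan12 KO had only 13 and 4 cells in arterial-like subclusters at that resolution. Its arterial-like subcluster when subclustered alone (56 cells) had Apln at 67.8, Aplnr at 374, Kcne3 at 11.7 and Cxcr4 at 29.99 CPM, the last below the 53.5 CPM of all its ECs. In the 57 arterial-like cells of WT subclustered alone these were 7.65, 73.8, 4.87 and 49.4 CPM. The Tspan12 KO subcluster carried the arterial markers more weakly, with a mean log2 fold of 1.51 against 3.02 in WT. Whether it also holds other ECs was not tested. In WT capillary-like cells at resolution 2 Aplnr reached 301 CPM, while Esm1 (8.50 CPM) and Kcne3 (8.94 CPM) were low. A Tspan12 KO subcluster of 64 cells, led by Nkd1 and haemoglobin genes and found in no other library beyond 1 cell, had Cxcr4 at 99.7 CPM, Kcne3 at 0.576 CPM and Adm at 0.576 CPM. Without the matching 64 cells of the main resolution the median Tspan12 KO ratio of the members moved from 0.15 to 0.37.

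**Figure D3:**
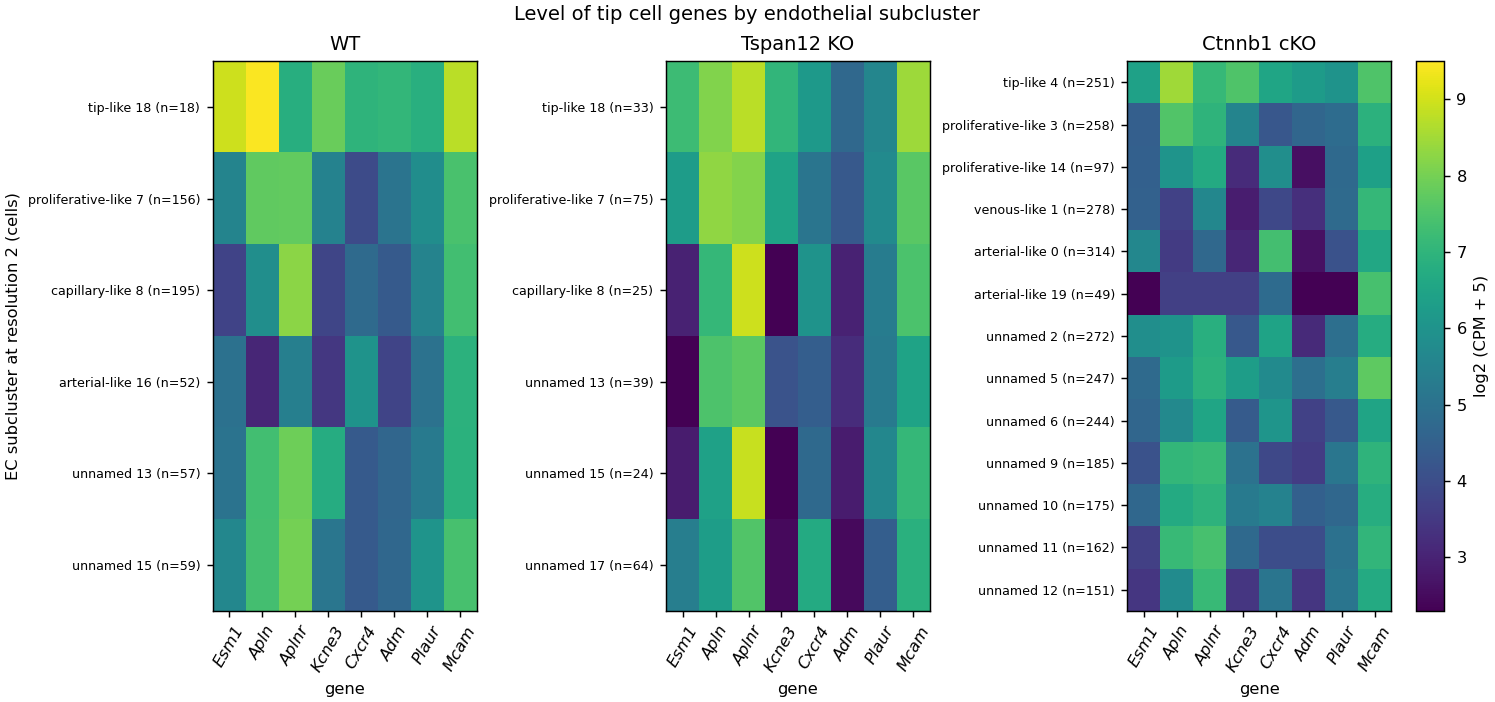
Level of the 8 genes, as log2 (CPM + 5), in each EC subcluster at resolution 2 with at least 15 cells, with 1 panel per library and cell numbers in the row labels. Tip-like rows are bright for Esm1, Apln, Kcne3 and Mcam, and the arterial-like rows of 52 and 314 cells are dark for Apln and brighter for Cxcr4.

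Within tip-like cells the ratio of Esm1 to WT lay further from 0 than over all ECs in both knockout libraries. Esm1 was carried by 15 of 18 WT tip-like cells, with a median of 17.5 UMIs per cell and a highest count of 108. For Tspan12 KO the gene was carried by 17 of 33, with a median of 1 and a highest count of 17. For Ctnnb1 cKO these were 47 of 255 cells and a highest count of 8. The ranges overlapped, since cells without a UMI were present in every library, and median depths were 40975.5, 11377 and 3029 UMIs. The Esm1 log2 ratios to WT in tip-like cells were -1.77 (-2.13 to -1.42) and -2.61 (-2.97 to -2.26). Without the cell richest in Esm1 in each library they were -1.74 and -2.47.

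Aplnr ran opposite to Esm1 in these cells. It was at 107, 427 and 134 CPM, and the log2 ratios were 2.0 (1.66 to 2.36) and 0.33 (-0.06 to 0.72), the latter 0.44 (0.02 to 0.87) without the cell richest in Aplnr in each library. After thinning, 2 of 18 WT cells (11.1%, 1.38 to 34.7) and 20 of 33 Tspan12 KO cells (60.6%, 42.1 to 77.1) held it. Adm was lower than WT in tip-like cells of Tspan12 KO, at 21.8 against 130 CPM, with a ratio of -2.57 (-3.57 to -1.71). In Ctnnb1 cKO its ratio there was -0.81 (-1.25 to -0.37). The Adm level of Tspan12 KO tip-like cells rests on 12 UMIs in 5 of 33 cells. After thinning, 4 of 18 WT cells (22.2%, 6.41 to 47.6) and 2 of 33 Tspan12 KO cells (6.06%, 0.74 to 20.2) held Adm, shares whose intervals overlap.

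Cxcr4 differed in direction with the cells compared. Its ratios to WT in tip-like cells were -0.85 (-1.42 to -0.30) and -0.45 (-0.87 to -0.03). In the other ECs they were 1.43 (1.2 to 1.67) and 1.29 (1.08 to 1.5). Without the richest cell of each library, the Ctnnb1 cKO ratio in tip-like cells was -0.27 (-0.73 to 0.19).

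For the remaining members the Tspan12 KO ratios in tip-like cells were -1.35 for Apln, -0.85 for Kcne3, -1.33 for Plaur and -0.33 for Mcam. In the other ECs they were 0.52, 0.58, -0.34 and 0.02. With the ECs of each library subclustered alone, 18 WT and 65 Tspan12 KO cells were tip-like and the ratios in them kept these directions, at -2.37 for Esm1, -1.0 for Apln, -0.91 for Kcne3, -1.08 for Cxcr4 and 1.74 for Aplnr. In the other ECs of that division Kcne3 was lower as well (-0.39, -0.73 to -0.06), and the interval of Apln included 0 at 0.12. Its tip-like subclusters of Tspan12 KO carried the tip markers more weakly, with mean log2 folds of 0.70 and 0.77 against 1.51 in WT. Angpt2 was at 53.0 and 88.1 CPM in them, against 334 CPM in the WT subcluster. Whether they also hold other ECs was not tested.

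**Figure D4:**
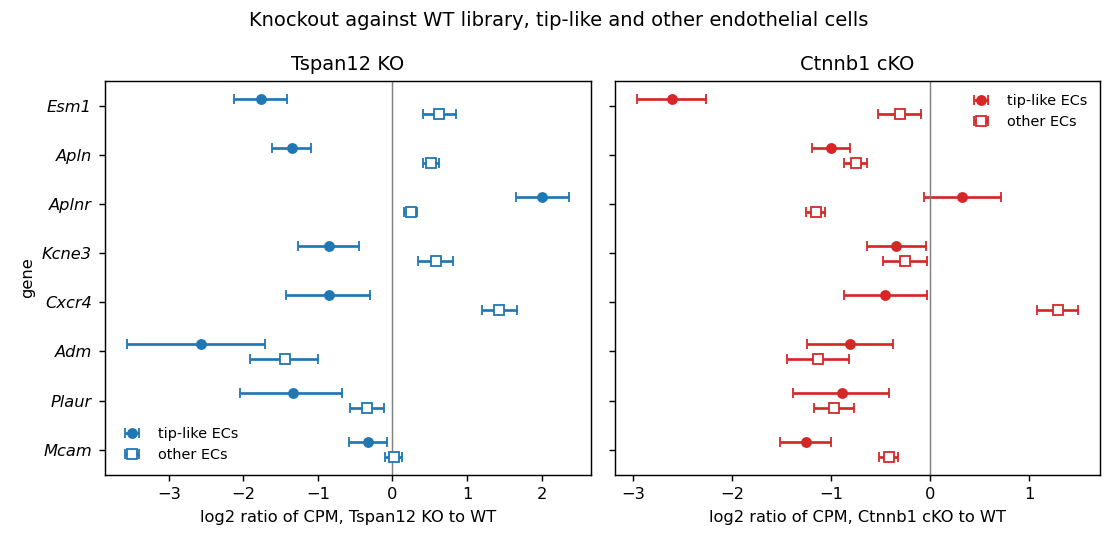
Log2 ratio of CPM in Tspan12 KO (left) and Ctnnb1 cKO (right) to WT for the 8 genes, in tip-like ECs (filled) and other ECs (open), with 95% counting intervals and a line at 0. In Tspan12 KO, Esm1, Apln, Kcne3 and Cxcr4 lie below 0 in tip-like and above 0 in other ECs, and in Ctnnb1 cKO Cxcr4 does. Tip-like and other ECs divide the same cells of a library, so their ratios are not independent.

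A definition of tip cells by the genes themselves gave a partly different picture. ECs with at least 2 of 6 members (Esm1, Apln, Kcne3, Cxcr4, Adm, Plaur) at 2000 UMIs were 46 of 520 (8.85%, 6.55 to 11.6), 24 of 259 (9.27%, 6.03 to 13.5) and 119 of 1884 (6.32%, 5.26 to 7.51). The comparison of libraries within such cells was added after the data had been seen. If the 6 genes were detected independently, 6.80%, 8.82% and 4.94% would be reached. To read 1 of these 6 genes, cells were chosen by the other 5, so that a gene did not select its own cells. Esm1 was then at 304, 241 and 105 CPM, ratios to WT of -0.33 (-0.66 to -0.01) and -1.53 (-1.92 to -1.16). Adm was at 121, 53.3 and 69.3 CPM and Plaur at 110, 69.2 and 54.0 CPM, below WT in both knockout libraries. Aplnr was at 158, 261 and 112 CPM. Apln was at 532, 560 and 316 CPM, and Kcne3 at 135, 257 and 217 CPM, so the lower Apln and Kcne3 of Tspan12 KO tip-like subclusters were not seen in cells chosen this way. For Cxcr4 the ratios to WT were 0.38 (-0.06 to 0.80) and 0.35 (-0.14 to 0.81) here.

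The members marked the same cells to unequal degrees. In these cells against ECs with none of the genes, Esm1 was higher by log2 ratios of 4.87, 3.43 and 2.34, and Kcne3 by 3.59, 3.80 and 3.50. Adm was higher by 3.48, 3.83 and 2.65. Apln, at 2.0, 1.90 and 1.80, and Plaur, at 1.5, 1.18 and 1.19, were less concentrated there. Aplnr was lower in WT (-0.61, -0.79 to -0.43) and Tspan12 KO (-0.24, -0.47 to -0.02) and within counting error in Ctnnb1 cKO (0.13, -0.21 to 0.45). Among pairs, Esm1 and Kcne3 were found together in 10, 8 and 11 cells where 1.18, 1.70 and 3.54 would be expected of independent genes. Esm1 and Aplnr were together in 7, 9 and 16 cells where 11.4, 8.49 and 13.1 would be.

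Of the tip markers that were not used to choose these cells, Angpt2, the ligand that destabilises vessels through Tie2, was higher in them by 3.43, 3.66 and 2.89 on the log2 (CPM + 5) scale, and Trp53i11 by 1.91, 1.71 and 1.25. Igfbp3 was higher by 1.81 and 2.03 in WT and Tspan12 KO and by 0.15 in Ctnnb1 cKO. Ackr3, the scavenger receptor of CXCL12, was higher by 2.26, 3.23 and 1.93, while Cxcl12 itself was lower by 3.48, 3.04 and 1.91. Of 7519 further genes, 24 were higher by a log2 ratio of 1 in all 3 libraries, and the median gene had a lowest ratio of -0.29. The 10 highest of them were Chst1, Oaf, Cd276, Prr5, Tns3, Pdlim1, Ptpre, Odc1, Slc16a6 and Clec1a, ranked by the lowest ratio of the 3 libraries. Chst1, a sulfotransferase of glycan chains, led with 1.99, 1.74 and 2.25. Cd276, an immune checkpoint protein of the B7 family, had 1.98, 1.85 and 1.67, and Odc1, the first enzyme of polyamine synthesis, had 1.37, 2.16 and 1.70. Over all ECs Chst1 was at 30.8, 23.6 and 16.7 CPM and Cd276 at 33.1, 36.8 and 18.9 CPM. The log2 ratio of Cd276 in Tspan12 KO to WT was within counting error (0.15, -0.07 to 0.38).

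The members also differed between ECs that were cycling and those that were not, where cycling means at least 3 UMIs over 12 cell cycle markers at 2000 UMIs (40.2%, 30.1% and 32.2% of ECs). Apln was higher in cycling ECs of every library, with log2 ratios of 0.68 (0.57 to 0.79), 1.09 (0.92 to 1.25) and 0.67 (0.51 to 0.83). Cxcr4 was lower in cycling ECs of every library, at -1.38 (-1.70 to -1.07), -0.94 (-1.30 to -0.59) and -1.02 (-1.32 to -0.74). Esm1 was lower in cycling ECs of WT (-0.55) and Ctnnb1 cKO (-1.04) and higher in those of Tspan12 KO (0.56), and Kcne3 reached 1.36 in Tspan12 KO against 0.25 and 0.10. Adm was higher in cycling ECs of Tspan12 KO (1.72, 0.87 to 2.62), with intervals that included 0 in WT (-0.04) and Ctnnb1 cKO (-0.09). Aplnr was lower in cycling ECs of WT (-0.18) and Tspan12 KO (-0.26) and higher in those of Ctnnb1 cKO (0.22). Among the ECs outside the cycling group, the ratio of Kcne3 in Tspan12 KO to WT was -0.26, opposite in sign to that over all ECs. The levels there were 35.5 CPM (31.4 to 40.0) in WT and 29.6 CPM (24.3 to 35.8) in Tspan12 KO, with overlapping intervals. For Mcam and Plaur the intervals included 0 in all 3 libraries.

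The ligands and receptors that act with the members were read from a fixed list of 23 genes, 19 of which passed the filter of 50 UMIs. In Tspan12 KO 1 was 2-fold higher and 2 were lower, against 0.515% and 1.03% of all genes. In Ctnnb1 cKO 2 were higher and 1 was lower, against 3.9% and 4.99%, and the median was 0.02 in both libraries. Ramp3, which with Calcrl forms an adrenomedullin receptor, was at 6.34, 39.1 and 35.2 CPM, log2 ratios of 2.62 (2.28 to 2.97) and 2.47 (2.16 to 2.80). Over all ECs, the ligand Adm was thus lower, and this receptor subunit higher, in both knockout libraries. In the stricter gate on single cells the Adm ratios were above 0, at 0.40 and 1.24. Ramp2, another subunit that joins Calcrl, was near level at 1227, 1274 and 1280 CPM, and Calcrl was at 64.8, 73.5 and 46.2 CPM. Adm2 had 0 UMIs in the ECs of every library.

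In the urokinase system of Plaur, Plat, which encodes tissue plasminogen activator, was lower in both knockouts, at 141, 53.5 and 60.3 CPM. The ligand Plau had between 9 and 17 UMIs per library. Lrp1, an endocytic receptor, was at 3.11, 3.15 and 11.3 CPM. For Cxcr4, the ligand Cxcl12 was at 58.5, 33.4 and 119 CPM in ECs themselves, lower than WT in Tspan12 KO and higher in Ctnnb1 cKO. Cxcr4 was higher in both over all UMIs, but near WT in thinned cells (0.18 and 0.22). Apela, the second ligand of Aplnr, had 4, 20 and 18 UMIs. Kcnq1, a channel subunit that Kcne3 can join, was at 95.9, 104 and 83.6 CPM, and Lama4, a laminin chain bound by Mcam, at 451, 371 and 324 CPM.

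Outside the ECs, Esm1 and Kcne3 were near the level of rods, which should lack them, in most classes. Their intervals lay above those of rods in the pericytes of Tspan12 KO, with Esm1 at 24.2 and Kcne3 at 27.5 CPM, and for Kcne3 in the 13 pericytes of WT, at 11.9 CPM. The 61 pericytes of Tspan12 KO also held Apln at 100.2 and Aplnr at 182 CPM. Esm1, Kcne3, Apln and Aplnr were each lower in them than in the ECs of that library. The part of RNA from ECs in these pericyte values was not tested. Plaur, Cxcr4 and Mcam were high in other cells as well. Plaur was at 112, 63.4 and 85.6 CPM in microglia, at 129 CPM in the 302 macrophages or monocytes of Ctnnb1 cKO and at 287 CPM in its 97 neutrophils. Cxcr4 was at 38.1 and 52.7 CPM in WT and Tspan12 KO Muller glia and at 77.3 CPM in Ctnnb1 cKO neutrophils. Mcam was at 216 and 202 CPM in the pericytes of Tspan12 KO and Ctnnb1 cKO and at 73.2 and 55.1 CPM in WT and Tspan12 KO Muller glia. In the 48 astrocytes of Tspan12 KO, Adm was at 74.4 CPM, above the 9.29 CPM of its ECs. The summed microglia markers were at 163, 113 and 740 CPM in the ECs of the libraries, and their part in the Plaur levels of ECs was not tested.

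**Figure D5:**
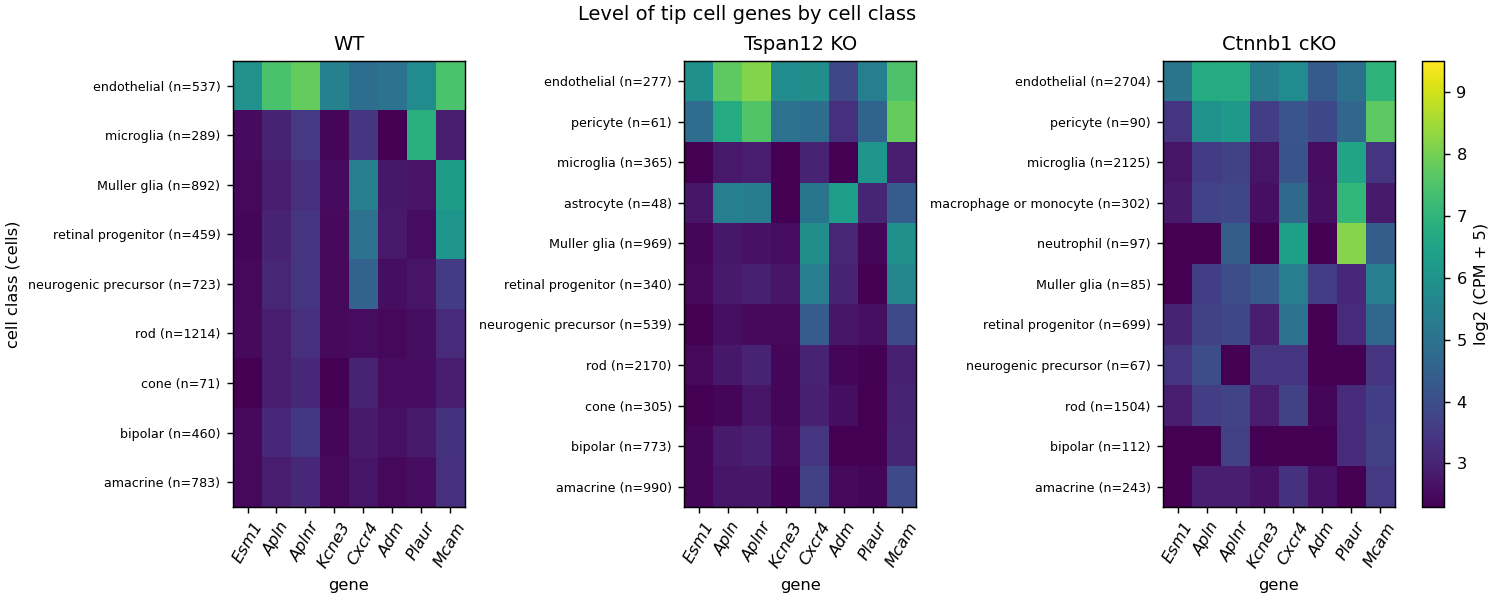
Level of the 8 genes, as log2 (CPM + 5), in each cell class with at least 30 cells, with 1 panel per library and cell numbers in the row labels. The endothelial row is bright for Apln, Aplnr and Mcam in each panel, Plaur is bright in microglia and neutrophils, and Cxcr4 and Mcam are raised in Muller glia and progenitors.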

How the data were processed

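UMI counts per gene and cell, as deposited by the authors, came from droplet 3′ libraries. The matrix headers name Cell Ranger 8.0.1 and the submitters' processing notes the build GRCm39, while the methods name an mm10 reference and a later Cell Ranger version, so no coordinates of the counts are given. No count column was left unmapped. Barcodes passed with 250 or more genes, 500 or more UMIs (the lowest total deposited) and a mitochondrial share of no more than 15%, and the highest Scrublet scores were removed as doublets at 0.8% per 1000 cells. Library totals were 92684519, 137114957 and 37008362 UMIs in WT, Tspan12 KO and Ctnnb1 cKO. Cells were clustered with scanpy 1.11.5 and leidenalg 0.10.2 (2000 variable genes without the members, 30 components, 20 neighbours, resolution 1) and named by at least 3 markers. A mean marker log2 fold of at least 0.5 per class was asked for after clusters had been seen. With the 8 members allowed among the variable genes, the EC numbers were the same.

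UMIs were summed over ECs of each library and given as CPM with exact Poisson intervals, log2 ratios with exact conditional binomial intervals and shares with Clopper-Pearson intervals. PCR duplicates were removed by UMI, and the intervals cover counting error only. With 1 library per group no test was made. TMM factors came from edgeR 4.0.16 in R 4.3.3. The scripts were tested on simulated data. The members and all lists were chosen with earlier results of these data known. Further genes were named by this rule: the 10 with at least 100 EC UMIs in every library, neither members, tip markers nor mitochondrial, with the highest value of their lowest log2 ratio over the 3 libraries between ECs with at least 2 of the 6 tip genes and ECs with none. The planned gate for tip-like cells (at least 3 UMIs of 10 tip markers at 2000 UMIs) took 65.6%, 67.2% and 78.8% of ECs, too many to mark tip cells, so subclusters at resolution 2, those of each library alone and an Angpt2 rule were added after the data had been seen. Medians under the planned gate are given with the alternatives. The comparison of libraries in cells chosen by other tip genes, thinned tip-like cells and tip-like cells without the richest cell were also added then. Some list genes are not reported here by name.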

Additional observations from a re-analysis of the deposited data

Results flagged for a closer look

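In Tspan12 KO against WT, 4 members lay on opposite sides of 0 in tip-like and other ECs at resolution 2, with counting intervals that excluded 0 in both. The differences were not tested, since each group is 1 library. Tip-like and other ECs divide the same cells of a library, so the signs in them are not independent. Tip-like cells were 3.35% of ECs in WT and 11.9% in Tspan12 KO. Over all ECs Esm1 was level (-0.02), with 446 UMIs in tip-like and 460 in other ECs of WT, and 80 and 272 in Tspan12 KO. The log2 ratio of Esm1 was -1.77 in tip-like and 0.63 in other ECs. That of Apln was -1.35 against 0.52, that of Kcne3 -0.85 against 0.58, and that of Cxcr4 -0.85 against 1.43. With each library subclustered alone, Kcne3 was below 0 in both groups (-0.91 and -0.39). Apln in other ECs was then 0.12, with an interval that included 0. In that division the tip-like subclusters of Tspan12 KO carried the tip markers more weakly than that of WT. After thinning, 31 of 502 WT and 21 of 226 Tspan12 KO other ECs held Cxcr4, shares whose intervals overlap. A subcluster of 64 cells held 173 of the Cxcr4 UMIs of Tspan12 KO. In ECs chosen by the other tip genes, Esm1 stayed below 0 (-0.33), Apln (0.07) and Cxcr4 (0.38) had intervals that included 0, and Kcne3 was above 0 (0.92, 0.59 to 1.25). In Ctnnb1 cKO against WT the same held for Cxcr4 alone, at -0.45 in tip-like and 1.29 in other ECs, also untested and with tip-like cells that came almost wholly from a subcluster of that library. Without the richest cell of each library this tip-like ratio was -0.27 (-0.73 to 0.19), and in ECs chosen by the other tip genes it was 0.35 (-0.14 to 0.81).

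Outside the ECs, Kcne3 was read at 14.7 CPM in the 85 Muller glia of Ctnnb1 cKO, above the WT Muller glia. It rests on 4 UMIs.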

How the results depend on the processing

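No paired analysis was possible because each group is 1 library and the libraries share no animals, so no replicate could be left out either. The cause of each shift below was not tested. The median log2 ratio of the 8 members, 0.15 in Tspan12 KO and -0.81 in Ctnnb1 cKO, was 0.83 and 0.70 in the EC marker gate. That of Tspan12 KO was -0.17 in ECs not called cycling and 0.37 without the Nkd1 and haemoglobin subcluster. That of Ctnnb1 cKO was -1.20 without subclusters of 1 library, -0.61 as a mean over cells and -0.59 in cells thinned to 2000 UMIs. In the EC marker gate the Ctnnb1 cKO ratios of Esm1 (2.14), Apln (0.69), Adm (1.24), Plaur (0.77) and Mcam (0.38) and the Tspan12 KO ratios of Adm (0.40) and Plaur (1.77) had the reverse sign. So did Kcne3 in Tspan12 KO outside cycling ECs (-0.26, with overlapping intervals of the levels), Adm in Ctnnb1 cKO without subclusters of 1 library (0.97, with 16 ECs of that library left) and Aplnr in Tspan12 KO tip-like cells by Angpt2 (-0.067, with an interval that included 0). Members past 2-fold in Tspan12 KO went from 1 lower to 0 (10.9% of all genes there) and from 0 higher to 2 (5.35%) in the gate. They went to 1 higher (1.42% of genes) with a pseudocount of 1. In Ctnnb1 cKO they went to 0 lower and 1 higher with TMM, against 3.30% and 5.27% of genes. The same counts were found in the gate, against 20.7% and 11.4% of genes. The tip-like share, 0 at resolution 1, was 3.35%, 11.9% and 9.43% at resolution 2 (order WT, Tspan12 KO, Ctnnb1 cKO), 3.35% and 23.5% in WT and Tspan12 KO subclustered alone, and 8.85%, 9.27% and 6.32% by 2 of 6 tip genes. By the marker gate it was 65.6%, 67.2% and 78.8% at 3 UMIs, 85.2%, 83.4% and 89.97% at 2, 48.85%, 50.2% and 63.6% at 4, 34.7%, 39.3% and 47.8% at a depth of 1000, 91.6%, 94.7% and 96.9% at a larger depth and 97.4%, 94.2% and 84.6% without thinning. The median ratio of tip-like to other ECs by the planned gate, 1.21 in WT and 0.78 in Ctnnb1 cKO, was 2.45 and 1.53 at resolution 2 and 1.96 and 1.60 by Angpt2, and 2.63 in WT subclustered alone. For Tspan12 KO this median was 0.80 by the planned gate, 0.89 at resolution 2, 1.23 by Angpt2 and 1.10 when subclustered alone. Of the single members' values against WT, 108 moved by less than their counting interval, 59 moved by more and 9 reversed. For tip-like against other ECs these were 72, 61 and 1. The values rest on 1 library per group, and Ctnnb1 cKO ECs were the shallowest.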
